A study of Platichthys stellatus with 16 samples.

Results

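Female brain was compared with female liver, gonad and muscle of a North Pacific flatfish, the starry flounder (Platichthys stellatus). The 8 female RNA-seq libraries, 2 per tissue, came from fish that were 3 years old, with no treatment named in the labels, and they are 8 of 16 libraries in all; the other 8 hold the same tissues of males. All 16270 genes of the table entered the comparisons. A gene was said to mark female brain when it was higher in brain than in each of the 3 other female tissues, with an adjusted p below 0.05 in all 3 tests, and 757 genes met this rule. The labels do not tie libraries to fish, so libraries of different tissues may share an animal. The p-values measure only the spread between the 2 libraries within a group, estimated together over all 16 libraries, males included. The series text names pituitary where the sample labels name muscle; the sample labels were followed.

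The vertebrate brain is built from neurons, which signal through ion channels and vesicle release at synapses, and from glia. Oligodendrocytes wrap axons in myelin, and in fish the radial glia that line the ventricles take on many roles that astrocytes have in mammals, including the synthesis of oestrogen by a brain form of aromatase. Brain tissue also uses much glucose, and carries its own forms of several glycolytic enzymes.

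Counts are the authors' estimates of reads per assembled gene, and FPKM is that estimate scaled to transcript length and sequencing depth. Where 2 FPKM values are given for a tissue they are libraries 1 and 2, in that order. Log2 differences are brain minus the other tissue, from counts, ± SE (n = 2 libraries per group). FPKM uses the isoform lengths estimated in each library and another scaling, so a quotient of FPKM values need not equal the fitted fold. Identifiers are those of the assembly, and names are those of the closest annotated protein, so several features can stand for pieces of 1 gene.

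The brain libraries held 9477352 and 9756805 listed counts, in a range over all libraries of 5134221 to 12972574. In a check of the tissue labels the skeletal muscle list took 17.4 and 21% of counts in muscle against 0.226 and 0.249% in brain, the hepatocyte list 10.3 and 18.04% in liver against 0.0947 and 0.114% in brain, and the ovary and oocyte list 0.874 and 0.769% in gonad against 0.0401 and 0.0538% in brain. No feature carrying the name of a pituitary hormone or a neuropeptide of the lists was analysed here. The lowest FPKM of any listed gene in any library was 0.31. Genes silent in a tissue are therefore absent, which limits what every gene list below can show. Both female brain libraries stood apart in composition. The 13 features that match mitochondrial DNA took 24.6 and 18.97% of counts there, against 0.183 to 7.14% in the other female libraries and 2.52 and 2.49% in male brain. The 6 ribosomal RNA features took 0.0814 and 0.0745%, against 0.322 to 2.11% and 0.936 and 0.924%. Liver library 1 was closer to brain than liver library 2 was, with a correlation across genes of log2(FPKM + 1) with brain library 1 of 0.779 against 0.615. Of 1457 genes higher in brain than in gonad and muscle, 64.7% stood higher in liver library 1 than in liver library 2, against 40.1% of all genes. Counts without liver library 1 and without the mitochondrial features are given beside only some of the results below.

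Against liver, 1892 genes (11.6%) were higher in female brain and 1978 (12.2%) lower, at an adjusted p below 0.05 in edgeR's quasi-likelihood test. Most calls were against gonad, with 4560 genes (28%) higher in brain and 4321 (26.6%) lower. Against muscle 2929 (18%) were higher and 2480 (15.2%) lower. Higher genes made up 48.9, 51.3 and 54.2% of the calls against liver, gonad and muscle. With each library scaled to its recovered total of fragments in place of TMM, the shares were 83.3, 38.5 and 87.97%, and the median difference of all genes moved from -0.04, 0.09 and 0.09 to 0.65, -0.39 and 0.94. The 3 comparisons share the brain libraries and are not independent. Against liver, leaving out a library moved the counts by over 1.5 times in 3 cases: to 1062 higher and 806 lower without brain library 1, 1111 and 867 without brain library 2, and 992 and 1087 without liver library 2. Against muscle they moved to 1768 and 1120 without brain library 1, 1887 and 1251 without brain library 2, 1382 and 1476 without muscle library 1, and 1686 higher without muscle library 2.

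The 757 genes that marked female brain were 4.65% of all genes. Their median level in brain was 54.4 FPKM, against 10.4 for all genes, and together they took 12.4 and 13.3% of the counts of the brain libraries. The median difference was 2.54 over liver, 3.14 over gonad and 2.72 over muscle, which describes genes chosen for being high. In FPKM, 733 of them had both brain libraries above all 6 other female libraries, as did 17.3% of all genes. The same libraries chose the markers, so that count describes the choice. The mark of 2 on the log2 scale was passed over every tissue by 393 (2.42%). Just inside that threshold lay ppp1r26 (2.01) and Dok1 (2.03), and just outside it WDR47 (1.99) and HMGB2 (1.98). By the same rule 709 genes (4.36%) marked female liver, 746 (4.59%) muscle and 2565 (15.8%) gonad. The marker count of brain was 415 without brain library 1, 451 without brain library 2, 490 without liver library 2 and 1026 without liver library 1. With recovered totals it was 1206, of which 632 were among the 757, and 244 of the 757 stayed markers under all 17 alternatives.

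Glial and myelin genes were among the leading named markers. Leading named markers were picked for brain libraries above all other female libraries in FPKM, so their lack of overlap describes the choice. Myelin basic protein, which compacts the myelin sheath, stood at 1371 and 1852 FPKM in brain, 1.28 and 2.32 in liver, 1.08 and 1.41 in gonad and 2.34 and 5.97 in muscle (MBP, TRINITY_DN126606_c2_g1). The brain and other libraries did not overlap, and no other library held more than 5.97 FPKM. The fitted differences were 8.45 ± 0.67 over liver, 10.33 ± 0.72 over gonad and 7.57 ± 0.64 over muscle, with edgeR adjusted p of at most 1.8e-05. Glycoprotein M6B, a proteolipid-family membrane protein of neurons and glia, was represented by a pair of features. Its first (Gpm6b, TRINITY_DN148640_c10_g4) held 293 and 313 FPKM in brain, 10.97 and 4 in liver, 2.86 and 9.82 in gonad and 6.87 and 8.92 in muscle. The groups did not overlap, and the smallest difference was 4.53 ± 0.70, over liver (edgeR adjusted p = 0.00056). The second (GPM6B, TRINITY_DN134734_c3_g2) held 83.6 and 111 FPKM in brain against 3.03 to 24.8 FPKM, a call that ended without liver library 2. Of the 10 features of the oligodendrocyte and myelin list, 3 marked brain (30%, against 4.65% of all genes). CNP and Mag, further myelin genes, did not: CNP stood at 48.7 and 42.1 FPKM in brain, 53.7 and 47.2 in liver, 91.1 and 81.2 in gonad and 44 and 13.4 in muscle, and Mag lay between 0.34 and 2.36 FPKM in all 8 libraries. In bulk tissue, fewer cells of a type and less RNA per cell cannot be told apart.

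**Figure D1:**
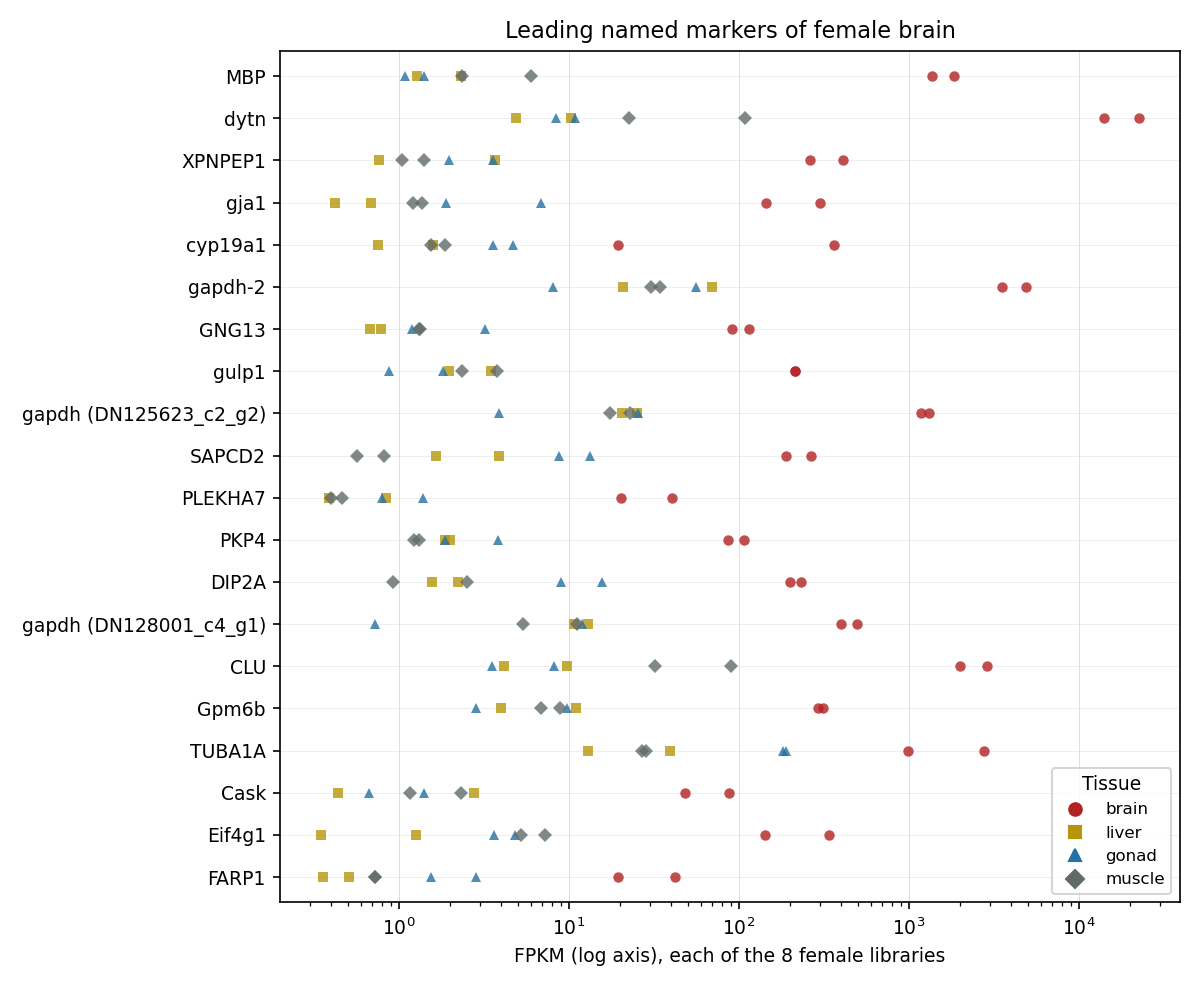
FPKM on a log axis of the 20 leading named markers of female brain, ranked by the smallest of their 3 log2 differences; each point is 1 of the 8 female libraries. Genes were picked with both brain points to the right of the 6 others, so that separation is no result. In rank order they run from MBP, at 1371 and 1852 FPKM in brain, to FARP1, at 41.95 and 19.5. The brain points of cyp19a1 lie far apart, at 19.4 and 365.

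Of the 19 features of the astrocyte and radial glia list, 8 marked brain (42.1%, against 4.65% of all genes) and 1 was lowest there. The list's median difference was 2.51 over liver, 1.82 over gonad and 2.06 over muscle (3.27, 1.32 and 2.90 with recovered totals). Connexin 43, the main gap junction protein of astrocytes in mammals, stood at 144 and 301 FPKM in brain, 0.69 and 0.42 in liver, 6.83 and 1.9 in gonad and 1.36 and 1.21 in muscle (gja1, TRINITY_DN128862_c4_g2). Brain exceeded each other tissue without overlap, by 7.88 ± 0.72 over liver, 6.11 ± 0.65 over gonad and 6.54 ± 0.67 over muscle (edgeR adjusted p at most 3.9e-05). Clusterin, a secreted chaperone, was carried by features TRINITY_DN148534_c2_g1 and TRINITY_DN148534_c2_g2 of 1 assembly component. They stood at 2012 and 2874 FPKM and at 972 and 1582 FPKM in brain, against at most 90.4 and 42.4 FPKM in any other female library. Muscle was the closest tissue for both, 4.60 ± 0.76 and 4.26 ± 0.83 below brain. Aldolase C, the brain form of a glycolytic enzyme, was represented by the features aldocb TRINITY_DN130864_c0_g3, at 254 and 407 FPKM in brain, 13.7 and 20.7 in liver, 12.4 and 35.8 in gonad and 9.12 and 9.43 in muscle, and aldocb TRINITY_DN124800_c3_g4, at 175 and 224 FPKM in brain and 7.09 to 24.9 FPKM elsewhere. The Notch target hes1 (37.2 and 37.5 FPKM in brain, 1.17 to 7.14 FPKM elsewhere) and ID1, an inhibitor of helix-loop-helix factors (114 and 91.2 FPKM and 1.55 to 16.04 FPKM), completed the markers of this list together with aromatase.

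Aromatase, which makes oestrogen from androgen, had its closest nucleotide match in the brain form of the enzyme of another flatfish (cyp19a1, TRINITY_DN141275_c2_g2). It stood at 19.4 and 365 FPKM in brain, 1.58 and 0.75 in liver, 3.57 and 4.7 in gonad and 1.87 and 1.55 in muscle. Both brain libraries lay above the 6 others, library 1 by a far smaller margin than library 2. The fitted differences over liver and gonad were 6.70 ± 1.46 and 6.13 ± 1.40 (edgeR adjusted p at most 0.0061), and the call ended without brain library 2, liver library 2, muscle library 1 or muscle library 2. Male brain held 2.9 and 133 FPKM. Glutamine synthetase, which recycles glutamate in astrocytes, was higher than in liver and muscle but not gonad: GLUL (TRINITY_DN145698_c1_g1) stood at 104 and 184 FPKM in brain, 12.1 and 9.26 in liver, 154 and 85.03 in gonad and 3.81 and 4.43 in muscle, with a difference over gonad of 0.86 ± 0.48 (edgeR adjusted p = 0.147). The 2 apolipoprotein E features (apoeb) reached 702 and 725 FPKM and 595 and 626 FPKM in brain without marking it. Aldh1l1 (TRINITY_DN132961_c0_g2), a folate enzyme used as an astrocyte marker in mammals, was lowest in brain, at 5.47 and 2.42 FPKM in brain, 23.3 and 73.7 in liver, 36.9 and 40.2 in gonad and 15.1 and 8.26 in muscle, a call that ended without brain library 2 or muscle library 1 and with recovered totals and by limma at both pseudocounts.

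Several leading markers belong to no neural list. Dystrotelin, a member of the dystrophin family, was the most abundant named marker, at 22605 and 14018 FPKM in brain, 10.3 and 4.89 in liver, 8.41 and 10.9 in gonad and 108 and 22.7 in muscle (dytn, TRINITY_DN140609_c8_g2). Muscle held more than liver or gonad, yet the difference over muscle was still 7.39 ± 0.89 (edgeR adjusted p = 0.0001). A feature named XPNPEP1 (TRINITY_DN134200_c2_g1), whose closest database protein is uncharacterised, stood at 411 and 263 FPKM in brain and 0.76 to 3.7 FPKM elsewhere. The engulfment adaptor gulp1 (TRINITY_DN141426_c0_g1) stood at 214 and 214 FPKM and 0.87 to 3.79 FPKM. SAPCD2 (TRINITY_DN139728_c0_g3), a regulator of spindle orientation, held 266 and 190.1 FPKM against 0.57 to 13.3 FPKM. Plakophilin 4, an armadillo-repeat protein of junctions, stood at 107 and 86.4 FPKM in brain, 1.87 and 1.99 in liver, 1.88 and 3.83 in gonad and 1.31 and 1.22 in muscle (PKP4, TRINITY_DN149378_c4_g1). PLEKHA7 (TRINITY_DN146020_c1_g1), of the adherens junction, held 40.3 and 20.4 FPKM in brain and no more than 1.38 elsewhere. FARP1 (TRINITY_DN138809_c1_g1), a guanine nucleotide exchange factor, held 41.95 and 19.5 FPKM against 0.36 to 2.83 FPKM. DIP2A (TRINITY_DN132353_c0_g1) stood at 201 and 231 FPKM against 0.93 to 15.6 FPKM, and the translation initiation scaffold Eif4g1 (TRINITY_DN132699_c1_g1) at 143 and 338 FPKM against 0.35 to 7.27 FPKM. None of these calls ended under any alternative run. PROX1 (TRINITY_DN146265_c1_g1), a homeobox factor, was named as 1 of the 5 largest increases over gonad, at 165 and 525 FPKM in brain, 7 and 22.5 in liver, 0.69 and 1.07 in gonad and 6.29 and 4.62 in muscle; its marker call rested on the margin over liver of 2.06 ± 0.69 and ended without brain library 2, gonad library 1, gonad library 2, liver library 1, muscle library 1 or muscle library 2 and in the fit of the female libraries alone.

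Of 49 features of the synapse and vesicle release list, 5 marked brain, 10.2% against 4.65% of all genes, and the list's median difference was -0.01 over liver, 0.45 over gonad and -0.19 over muscle (0.65, -0.08 and 0.64 with recovered totals). The count was 3 without brain library 2 or muscle library 1. CASK, a scaffold kinase of the synaptic membrane, supplied 2 of them. Its feature TRINITY_DN141585_c3_g2 stood at 87.7 and 47.96 FPKM in brain, 0.44 and 2.77 in liver, 1.4 and 0.67 in gonad and 2.33 and 1.17 in muscle, higher by 4.71 ± 0.78 over liver, 6.47 ± 0.84 over gonad and 4.33 ± 0.77 over muscle (edgeR adjusted p at most 0.0012). Feature TRINITY_DN148684_c2_g2 held 143 and 89.2 FPKM against 1.98 to 28.99 FPKM. RAB3A (TRINITY_DN134483_c0_g1), the small GTPase of synaptic vesicles, stood at 13.7 and 31.4 FPKM in brain, 1.97 and 2.7 in liver, 5.61 and 5.5 in gonad and 0.4 and 1.23 in muscle, with a smallest difference of 2.33 ± 0.45, over gonad. Dynamin 1, which pinches vesicles from the membrane, held 16.3 and 28.9 FPKM in brain against 1.02 to 6.81 FPKM (DNM1, TRINITY_DN135842_c3_g2), a call that ended without brain library 2, liver library 2 or muscle library 1 and by limma on log2(FPKM + 0.1). Rims2 (TRINITY_DN149391_c0_g2), of the active zone, held 13.8 and 22.5 FPKM against 1.26 to 7.73 FPKM, and its call ended without brain library 1, brain library 2, gonad library 1, gonad library 2 or muscle library 1 and by limma on log2(FPKM + 0.1) and with recovered totals. Many synaptic features did not pass: synaptobrevin Vamp2 stood at 31.3 and 30.3 FPKM in brain, 16.7 and 16.7 in liver, 44.7 and 44.9 in gonad and 33.5 and 16.3 in muscle, and the vesicular glutamate transporter slc17a7 at 37.2 and 26.1 FPKM in brain, 31.7 and 4.96 in liver and 9.1 and 30.6 in muscle. SLC6A12 (TRINITY_DN143720_c0_g1), a transporter of betaine and GABA, was lowest in brain, at 0.83 and 4.54 FPKM against 3.86 to 102 FPKM, a call that ended without brain library 2 or muscle library 1 and with recovered totals and by limma at both pseudocounts.

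Of 27 ion channel features 2 marked brain (7.41%, against 4.65% of all genes), a count of 4 without liver library 1 and 1 without brain library 1, liver library 2 or either muscle library. KCNK1 (TRINITY_DN144304_c2_g1), a leak potassium channel, stood at 18.4 and 22.7 FPKM in brain, 3.7 and 3.43 in liver, 2.61 and 6.23 in gonad and 0.5 and 2.12 in muscle, higher by 3.39 ± 0.58 over liver, 3.25 ± 0.56 over gonad and 3.59 ± 0.60 over muscle. Of 5 neurotransmitter receptor features only GRINA (TRINITY_DN141515_c1_g1), a lifeguard-family protein named for its association with glutamate receptors, marked brain (20%), at 32.2 and 45.5 FPKM against 0.63 to 5.39 FPKM. The adenosine receptor ADORA1 passed the test against liver and gonad but not muscle, at 11.6 and 31.1 FPKM in brain, 2.22 and 0.9 in liver, 3.24 and 4.2 in gonad and 18.8 and 15.96 in muscle. The list of heterotrimeric G protein signalling held 101 features, of which 4 marked female brain (3.96%, near the 4.65% of all genes). They were 7 without liver library 1 and 9 with recovered totals. The gamma subunit GNG13 (TRINITY_DN134812_c1_g1) was the leading one, at 91.3 and 114 FPKM in brain, 0.79 and 0.68 in liver, 1.19 and 3.21 in gonad and 1.34 and 1.32 in muscle, a difference of 6.30 ± 0.73 over liver, 6.33 ± 0.70 over gonad and 5.72 ± 0.72 over muscle (edgeR adjusted p at most 0.00012). RGS12 (TRINITY_DN145435_c2_g2), which speeds the shut-off of G proteins, held 16.7 and 30.1 FPKM against 1.32 to 3.82 FPKM. The beta subunit Gnb2 (TRINITY_DN136292_c7_g1) held 10.4 and 19.6 FPKM against 0.78 to 2.34 FPKM, and the kinase anchor AKAP9 (TRINITY_DN141414_c0_g1) held 61.02 and 75.2 FPKM against 7.48 to 12.1 FPKM, a call lost without brain library 2.

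Among 34 features of axon guidance and neural adhesion 6 marked brain (17.6%, against 4.65% of all genes). All 6 did so by 2 or more on the log2 scale, as did 2.42% of all genes. The marker count fell without brain library 2, liver library 2 or muscle library 1, and rose without liver library 1. Against liver 8 of the list were higher in brain and 8 lower, where 11.6 and 12.2% of all genes were. The list's median difference was 0.19 over liver, 0.81 over gonad and 1.51 over muscle (0.90, 0.32 and 2.38 with recovered totals). EPHA4, an ephrin receptor that repels axons, stood at 50.8 and 109 FPKM in brain, 3.62 and 0.79 in liver, 0.32 and 0.56 in gonad and 1.08 and 0.7 in muscle (EPHA4, TRINITY_DN138731_c0_g1). The groups did not overlap, and the differences were 4.09 ± 0.68 over liver, 8.12 ± 0.84 over gonad and 5.53 ± 0.75 over muscle (edgeR adjusted p at most 0.00087). SLIT1 (TRINITY_DN127316_c3_g1), a secreted guidance ligand, held 11.03 and 24.8 FPKM against 0.42 to 2.24 FPKM. A roundabout receptor, Robo4 (TRINITY_DN145489_c0_g1), known from vessels, stood at 2.95 and 20.4 FPKM against 0.86 to 1.95 FPKM; brain library 1 was close to the other tissues and the call ended without brain library 2, liver library 2, muscle library 1 or muscle library 2 and in the fit of the female libraries alone. Among adhesion proteins, a protocadherin of the gamma cluster (PCDHGA5, TRINITY_DN149474_c4_g2) stood at 33.7 and 89.02 FPKM in brain, 2.01 and 2.5 in liver, 0.48 and 1.16 in gonad and 2.73 and 3.58 in muscle. Contactin-family features were cntn1a (TRINITY_DN149413_c2_g1), at 17.9 and 28.9 FPKM against 0.31 to 2.77 FPKM, and CNTN6 (TRINITY_DN146721_c2_g3), closest in nucleotides to a contactin-3-like transcript, at 289.8 and 175 FPKM against 6.31 to 47.7 FPKM. The call of cntn1a ended without liver library 2 or muscle library 1.

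Of 62 features of the neuronal cytoskeleton and axonal transport list, 14 marked brain (22.6%, against 4.65% of all genes). None was lowest there, where 1.96% of all genes were (14 and 1 without the 13 mitochondrial features). Against liver 24 were higher and 2 lower, where 11.6 and 12.2% of all genes were. The list's median difference over liver was 1.11 on the log2 scale and 1.72 with recovered totals, against -0.04 and 0.65 for all genes. Without liver library 1 the list's median over liver was 0.67. The list summed to 0.521 and 0.79% of brain counts. The marker count was 6 without brain library 1 and 7 without muscle library 2. Alpha tubulin TUBA1A (TRINITY_DN139485_c4_g1), the tubulin of growing neurons, stood at 986 and 2790.2 FPKM in brain, 39.6 and 12.9 in liver, 182 and 191 in gonad and 28.3 and 27.04 in muscle. Gonad was the closest tissue, 4.48 ± 0.77 below brain (edgeR adjusted p = 0.00032). Kif1b (TRINITY_DN146256_c2_g2), a kinesin that carries synaptic vesicle precursors, held 81.01 and 101 FPKM in brain, 2.47 and 0.94 in liver, 6.03 and 8.74 in gonad and 0.75 and 1.27 in muscle. Beta tubulin TUBB (TRINITY_DN134220_c0_g1) held 447 and 519.6 FPKM against 14.3 to 65.6 FPKM. Spectrin, which forms the lattice under the axonal membrane, gave 6 of the marker features, 5 of the beta chain and 1 of the alpha chain, so that they are not independent. The leading one, SPTBN1 (TRINITY_DN148160_c1_g3), stood at 91.05 and 87.6 FPKM in brain, 5.56 and 7.28 in liver, 11.9 and 13.8 in gonad and 14.7 and 4.57 in muscle. A further one, TRINITY_DN149512_c6_g2, held 36.2 and 31 FPKM against 1.31 to 6.03 FPKM and lost its call without brain library 1 or muscle library 2. Adducin, which caps actin in that lattice, marked brain through ADD3 (TRINITY_DN148822_c5_g1), at 127 and 102 FPKM against 2.41 to 19.7 FPKM, and through ADD1.

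Most of the markers carried no gene name. Only 368 of the 757 were named (48.6%), against 70.4% of all genes, 71.4% of the 671 that marked male brain and 90.6% of those lowest in female brain. The unnamed markers had a median length of 1320.0 bases against 2847.5 for the named ones, a gap that all genes showed too, at 1164 and 2451 bases. Male brain was marked by 102 of 389 against 135 of 368, a difference that was not tested. In the authors' annotation 243 of the 389 (62.5%) had a messenger RNA of another species as closest nucleotide match, against 49.5% of all unnamed features, and 108 (27.8%) had no match. The 25 leading ones with a messenger RNA match were taken after their values were seen, and their names below are only those of the match. Matches called uncharacterized or hypothetical were left out, as were markers whose brain libraries did not exceed all 6 other female libraries in FPKM. Some unnamed markers outside the 25 ranked above members of it. One was TRINITY_DN126601_c0_g1, with a smallest difference of 5.83 and a mean of 31049 FPKM in brain.

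The strongest matched synaptotagmin-2-like, a calcium sensor of vesicle release, and stood at 172 and 612 FPKM in brain, 8.82 and 1.54 in liver, 1.3 and 1.94 in gonad and 0.95 and 1.17 in muscle (TRINITY_DN141379_c0_g1). The next matched the alpha-3 subunit of the sodium-potassium pump, the form found in neurons, at 2816 and 1522 FPKM in brain, 15.5 and 2.61 in liver, 1.01 and 9.89 in gonad and 8.12 and 14 in muscle (TRINITY_DN147513_c5_g2). Neither overlapped with any other female library, with smallest differences of 7.00 ± 0.88 over liver and 6.77 ± 1.13 over muscle. A further aldolase C feature (TRINITY_DN130864_c0_g2), of the same component as an aldocb feature above, was the most abundant of the 25, at 3635 and 2866 FPKM in brain, 80.2 and 37.2 in liver, 35.5 and 143 in gonad and 20.7 and 41.7 in muscle. A match to brain acid soluble protein 1, a growth-cone protein, held 415 and 352 FPKM against 2.33 to 35.5 FPKM (TRINITY_DN143368_c3_g1). A match to carboxypeptidase H, which processes neuropeptides, held 106 and 134 FPKM against 1.7 to 14.4 FPKM (TRINITY_DN149286_c1_g1), and one to diacylglycerol lipase alpha, which makes an endocannabinoid, 57.4 and 81.2 FPKM against 1.6 to 6.25 FPKM (TRINITY_DN121399_c1_g1). Matches to guidance and adhesion genes were protocadherin alpha-C2 (33.3 and 57.9 FPKM in brain), protocadherin gamma-C5 (117 and 370.1 FPKM) and semaphorin 6A (75.9 and 121 FPKM), with at most 10.4 FPKM for any of them outside brain. Of the 25, 18 also marked male brain. The call of the gpatch2l match ended by limma at both pseudocounts.

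**Figure D2:**
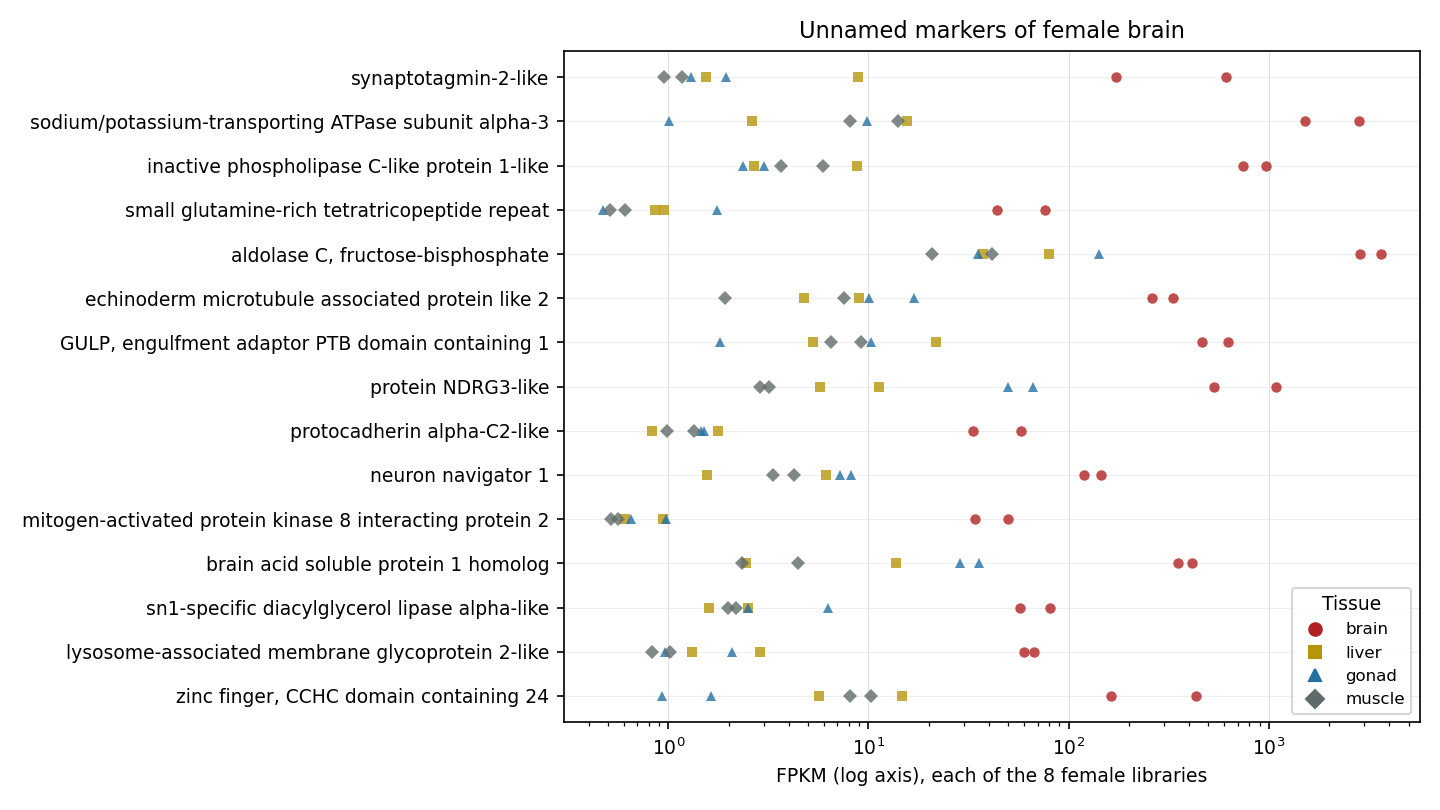
FPKM on a log axis of the 15 leading markers of female brain without a gene name, labelled by their closest nucleotide match; each point is 1 of the 8 female libraries. These genes too were picked with both brain points to the right of all others. The sodium-potassium pump match stands at 2816 and 1522 FPKM in brain against at most 15.5 elsewhere.

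Glycolytic enzymes split by form. Of 57 features of the list 11 marked female brain (19.3%, against 4.65% of all genes), and 4 were lowest there, where 1.96% of all genes were. Against liver 15 of the list were higher in brain and 12 lower, against gonad 24 and 10, and against muscle 17 and 19. Of all genes 11.6 and 12.2%, 28 and 26.6%, and 18 and 15.2% were. The list's median difference was 0.42 over liver, 1.57 over gonad and -0.01 over muscle (1.08, 1.07 and 0.79 with recovered totals). Glyceraldehyde-3-phosphate dehydrogenase showed the split most plainly. One component gave the features gapdh-2 (TRINITY_DN125623_c2_g3), at 4914 and 3545 FPKM in brain, 69.95 and 20.8 in liver, 8.04 and 56.1 in gonad and 30.3 and 34.5 in muscle, and gapdh (TRINITY_DN125623_c2_g2), at 1313 and 1173 FPKM in brain, 25.1 and 20.7 in liver, 3.86 and 25.5 in gonad and 17.5 and 23.1 in muscle. The brain libraries were far above all 6 others for both, with smallest differences of 5.77 ± 1.01 and 5.05 ± 0.84, over liver (edgeR adjusted p = 0.0012 and 0.00085). Another set of gapdh features ran the other way and was lowest in brain. GAPDH TRINITY_DN125136_c3_g1 stood at 42.98 and 28.9 FPKM in brain, 1644 and 3649 in liver, 1485 and 789.7 in gonad and 147281 and 136541 in muscle. Muscle was far above brain, a brain minus muscle difference of -12.76 ± 1.28 (edgeR adjusted p = 3.4e-05), and gonad and liver lay between. The lowest-in-brain calls of 2 of the 4 such features ended when a library was left out: GAPDH TRINITY_DN131496_c0_g1 without brain library 1 or brain library 2, and gapdh TRINITY_DN125136_c3_g2 without brain library 1, brain library 2 or gonad library 1. A feature named gapdh (TRINITY_DN128001_c4_g1) that also marked brain, at 498 and 400.1 FPKM, had a calcium-sensing receptor as closest database protein.

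Phosphofructokinase, which commits glucose to glycolysis, was high in brain in features named PFKM and PFKP of 1 component. PFKM (TRINITY_DN144803_c4_g5) stood at 519.7 and 619 FPKM in brain, 10.5 and 4.46 in liver, 46.2 and 64.9 in gonad and 3.51 and 3.99 in muscle, and PFKP (TRINITY_DN144803_c4_g2) at 61.3 and 192 FPKM in brain, 2.44 and 3.72 in liver, 12.4 and 12.8 in gonad and 1.85 and 3.71 in muscle. Neither overlapped with another tissue. Gonad was closest for both, with differences of 3.90 ± 0.76 and 4.22 ± 0.66 (edgeR adjusted p = 0.0008 and 0.00016). Phosphoglycerate mutase Pgam1 (TRINITY_DN129613_c1_g2) held 580.1 and 487 FPKM in brain, 20.8 and 15.4 in liver, 35.9 and 22.9 in gonad and 5.76 and 9.27 in muscle. A creatine kinase feature, tck1 (TRINITY_DN133696_c0_g1), closest in nucleotides to the brain form ckb, held 1138 and 575 FPKM in brain, 24.3 and 1.88 in liver, 71.3 and 66.9 in gonad and 2.1 and 3.33 in muscle, a difference of 7.43 ± 1.07 over muscle (edgeR adjusted p = 0.00029). The glucose transporter SLC2A1 (TRINITY_DN144149_c2_g1), which carries glucose across the blood-brain barrier in mammals, stood at 39.2 and 200.1 FPKM in brain, 3.12 and 3.97 in liver, 9.85 and 18.01 in gonad and 4.33 and 9.1 in muscle. Brain library 2 set most of that level, and the call ended without brain library 2, liver library 2 or muscle library 1.

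**Figure D3:**
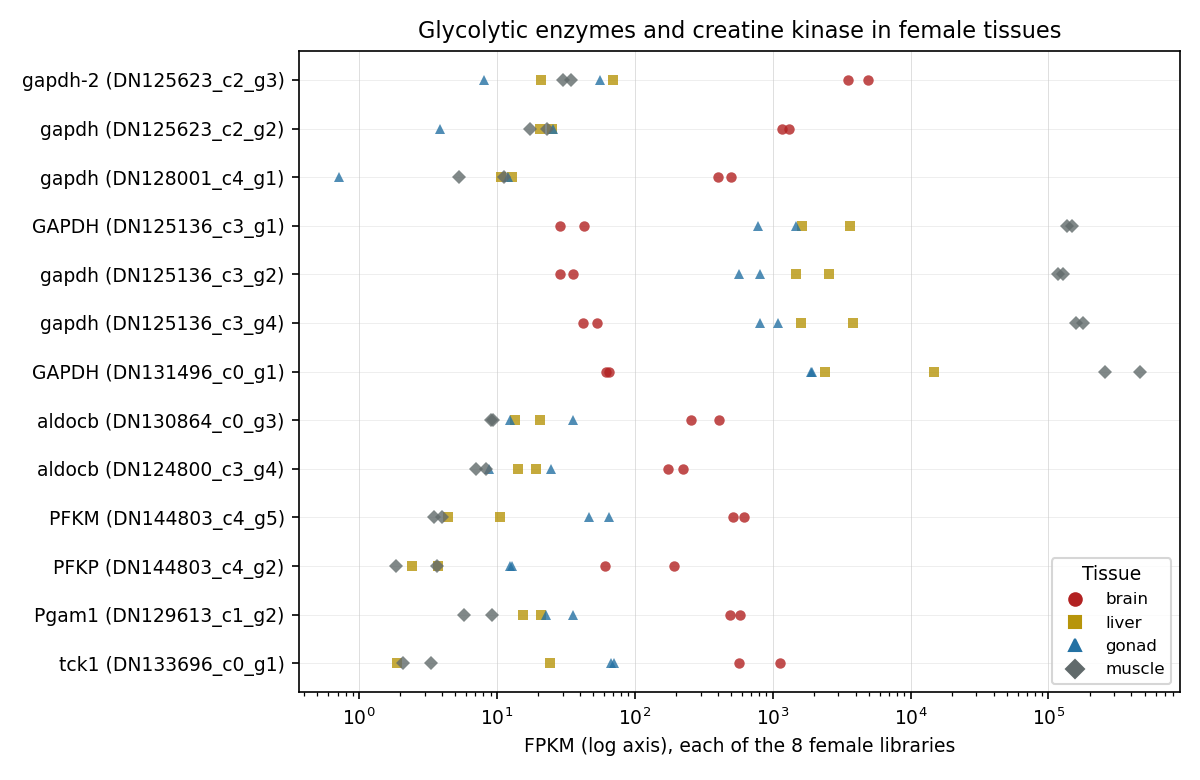
FPKM on a log axis of glycolytic features and 1 creatine kinase feature in the 8 female libraries, 1 point per library. The 4 gapdh features of components DN125136 and DN131496 run from 28.8 to 65.1 FPKM in brain and from 117816 to 459240.0 in muscle, while gapdh-2 stands at 4914 and 3545 in brain and 30.3 and 34.5 in muscle.

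Markers of the other cell types of brain tissue were mixed. Of 33 features of endothelium, pericyte and meninges 3 marked brain, a count of 1 without liver library 2 and 6 with recovered totals. The endothelial junction protein ESAM (TRINITY_DN149204_c3_g5) stood at 42.9 and 44.9 FPKM in brain, 2.33 and 1.75 in liver, 0.39 and 0.31 in gonad and 0.32 and 0.75 in muscle, and the pericyte receptor pdgfrb (TRINITY_DN147975_c1_g2) at 125.4 and 183 FPKM in brain, 25.8 and 8.47 in liver, 2.01 and 5.97 in gonad and 6 and 37.6 in muscle, a call that ended without liver library 2. SLC2A1 was the other. The 3 of 33 were 9.09% of this list, against 4.65% of all genes. Against muscle 4 of the 33 were higher in brain and 13 lower, where 18 and 15.2% of all genes were. Against gonad 18 were higher and 1 lower, where 28 and 26.6% of all genes were. Against liver 4 were higher and 3 lower, where 11.6 and 12.2% of all genes were. The list of ependyma, choroid plexus and cilia had 4 markers of 63 (6.35%, near the 4.65% of all genes). They included 2 intraflagellar transport genes, IFT27 (TRINITY_DN124462_c0_g1) at 65.9 and 55.7 FPKM in brain and IFT57 (TRINITY_DN136025_c0_g1) at 44.1 and 98.9 FPKM, with gonad next at 20.3 and 26.3 and 20.2 and 28.2. The first call ended without gonad library 1 and by limma on log2(FPKM + 0.1), the second without brain library 2 or gonad library 1 and by limma on log2(FPKM + 0.1) and with recovered totals. This list's count fell without brain library 2 or gonad library 1. Against gonad 12 of the 63 were higher in brain and 28 lower. Against liver 17 were higher and 5 lower, and against muscle 14 and 7. Microglia and leukocyte genes gave 0 of 13 in edgeR (0 at an unadjusted p below 0.05, 0 in DESeq2 and 0 and 0 in limma with pseudocounts 1 and 0.1). The invariant chain CD74 (TRINITY_DN141357_c1_g4), of antigen presentation, stood at 2102 and 1371 FPKM in brain, 733 and 179 in liver, 44.9 and 111 in gonad and 208 and 191 in muscle, with a difference over liver of 1.15 ± 0.94 (adjusted p = 0.395). Against gonad 6 of the 13 were higher in brain and 1 lower, where 28 and 26.6% of all genes were. Against liver 0 were higher and 4 lower, where 11.6 and 12.2% of all genes were. Against muscle 1 was higher and 0 lower, where 18 and 15.2% of all genes were. The list's median difference was -0.81 over liver, 1.53 over gonad and 0.77 over muscle. Of 10 blood cell features 0 marked brain in edgeR (2 at an unadjusted p below 0.05, 1 in DESeq2 and 4 and 3 in limma with pseudocounts 1 and 0.1; 2 in edgeR without liver library 1), and 7 were higher than in gonad; beta globin hbb1 (TRINITY_DN131083_c4_g2) stood at 5906 and 13467 FPKM in brain, 8243 and 2374 in liver, 36.6 and 259 in gonad and 2395 and 6487 in muscle, and at 30.4 and 760.4 FPKM in male brain. The blood list summed to 0.297 and 0.632% of counts in brain, 0.602 and 0.337% in liver, 0.0281 and 0.0335% in gonad and 0.149 and 0.418% in muscle, and its part in the differences was not tested.

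HIVEP1 (TRINITY_DN112241_c0_g1) was the 1 marker among 23 features of neural transcription factors (4.35%, against 4.65% of all genes). It stood at 26.8 and 35.7 FPKM in brain, 3.54 and 2.01 in liver, 1.42 and 34.3 in gonad and 0.88 and 3.46 in muscle. Its call ended without brain library 1, brain library 2, liver library 1, liver library 2 or muscle library 1 and by limma at both pseudocounts. Of 40 features for sphingolipids, cholesterol and fatty acids of brain 0 marked it in edgeR (1 at an unadjusted p below 0.05, 0 in DESeq2 and 1 and 0 in limma with pseudocounts 1 and 0.1; 1 in edgeR without either gonad library). CERS2 (TRINITY_DN148252_c1_g3), a ceramide synthase of that list, was lowest in brain, at 2.94 and 3.71 FPKM in brain, 88.8 and 279 in liver, 30.4 and 26.6 in gonad and 15.2 and 15.1 in muscle. Against liver 13 of the list were lower in brain and 2 higher, where 12.2 and 11.6% of all genes were. The list's median difference over liver was -0.64 on the log2 scale and 0.04 with recovered totals, against -0.04 and 0.65 for all genes. Of 44 immediate early and stress genes 3 marked brain, 0 without brain library 2 and 1 without muscle library 1, and 6 with recovered totals. The 3 were ddit4 (66.9 and 291 FPKM in brain), JUND (9.61 and 15.7 FPKM) and Zfp36l2 (253 and 625 FPKM). They made up 6.82% of that list, near the 4.65% of all genes. Lists of other tissues gave 1 marker each in the hepatocyte and skeletal muscle lists (3.13 and 3.03%), and 0 of 12 in the ovary and oocyte list (0 at an unadjusted p below 0.05, 0 in DESeq2 and 0 and 0 in limma with pseudocounts 1 and 0.1). Of 3 photoreceptor and retina features 0 marked brain in edgeR (1 at an unadjusted p below 0.05, 0 in DESeq2 and 0 and 0 in limma with pseudocounts 1 and 0.1; 1 in edgeR without gonad library 2). The hepatocyte one was Serpina10 (TRINITY_DN145446_c0_g1), an inhibitor of coagulation proteases, at 271 and 338 FPKM in brain, 30.1 and 28.1 in liver, 34.4 and 31.8 in gonad and 12.8 and 21.9 in muscle. The skeletal muscle one was PFKM, described above, and that list's count was 3 without liver library 1 and 2 without liver library 2.

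**Figure D4:**
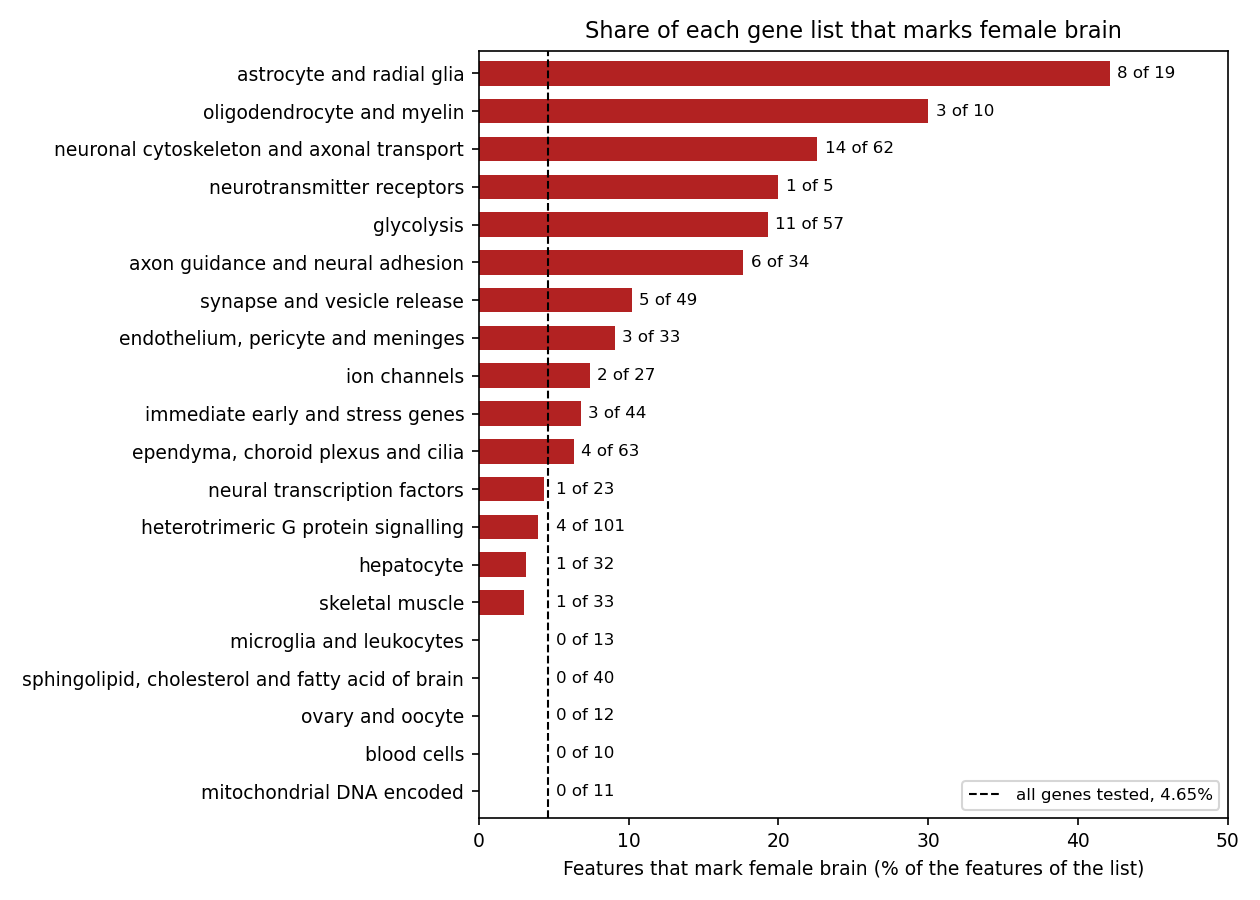
Share of each gene list that marked female brain, as a percentage of the list's features, with the counts printed beside the bars; lists under 5 features are left out. The dashed line is the share of all genes, 4.65%. The astrocyte and radial glia list stands at 42.1%, and the heterotrimeric G protein list lies near the line, at 3.96%.

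Mitochondrial and ribosomal protein genes were among those with the highest levels in female brain; the ones described here did not mark it. Cytochrome c oxidase subunit 2, mt-co2 (TRINITY_DN134971_c5_g6), stood at 121789 and 110982 FPKM in brain, 30544 and 5901 in liver, 1248 and 15685 in gonad and 14710.2 and 14978 in muscle. Brain was above all other female libraries, by 1.76 ± 1.09 over liver, 4.89 ± 1.25 over gonad and 2.15 ± 1.11 over muscle, with edgeR adjusted p of 0.26, 0.0048 and 0.15. All 11 features named as encoded in mitochondrial DNA were higher than in gonad, 2 were higher than in muscle and none passed against liver. Of all genes 28, 18 and 11.6% were higher in these comparisons. None of the 11 marked brain in edgeR (2 at an unadjusted p below 0.05, 2 in DESeq2 and 10 and 10 in limma with pseudocounts 1 and 0.1). Without liver library 1, 5 of them marked brain, without either gonad library 1 did, and with recovered totals 6 did. Among ribosomal proteins rpl35 (TRINITY_DN132241_c0_g1) stood at 48728 and 40209.9 FPKM in brain, 54118 and 39867 in liver, 32711 and 31049 in gonad and 24043 and 16926 in muscle. After the 13 mitochondrial features were left out of the fit, 735 genes marked brain.

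Genes lowest in female brain numbered 319 (1.96% of all genes). They took 0.335 and 0.434% of brain counts. In FPKM 200 of them had both brain libraries below all 6 others, as did 2.83% of all genes. The same libraries chose the lowest genes, so that count describes the choice. S-adenosylhomocysteine hydrolase ahcy-b (TRINITY_DN144835_c0_g2) stood at 9.26 and 6.83 FPKM in brain, 72.5 and 222 in liver, 166 and 133 in gonad and 180.4 and 97.96 in muscle, and adenosine kinase ADK (TRINITY_DN146865_c0_g1), which removes adenosine, at 2.46 and 2.96 FPKM in brain, 72.3 and 124 in liver, 83.2 and 66.5 in gonad and 20.5 and 22.4 in muscle. Each brain value lay below each other female value for both, by -5.38 ± 0.48 against liver, -4.45 ± 0.46 against gonad and -3.86 ± 0.45 against muscle for ADK (edgeR adjusted p at most 7.9e-05). Atlastin 2, which shapes the endoplasmic reticulum, stood at 2.12 and 3.04 FPKM against 10.3 to 48.2 FPKM (atl2, TRINITY_DN124147_c2_g2), and the phosphatase DUSP14 (TRINITY_DN134388_c2_g5) at 0.65 and 0.8 FPKM against 2.11 to 36.6 FPKM. FAM46A (TRINITY_DN132129_c3_g1) stood at 2.39 and 2.71 FPKM against 14.7 to 239.9 FPKM, a call lost without brain library 1, and Ptgfrn (TRINITY_DN147891_c2_g2) at 0.69 and 0.64 FPKM against 0.8 to 11.5 FPKM, a call lost without brain library 1, brain library 2, liver library 2 or muscle library 2 and by limma at both pseudocounts. The kinase anchor AKAP1 (TRINITY_DN142912_c0_g1) stood at 0.55 and 0.62 FPKM against 0.95 to 85.5 FPKM, a call lost without brain library 1, brain library 2, muscle library 1 or muscle library 2 and with recovered totals and by limma at both pseudocounts; ccdc47 (TRINITY_DN133185_c0_g1) lost its call without brain library 1, brain library 2, liver library 2 or muscle library 2 and with recovered totals and by limma at both pseudocounts. The features named Nlrc3 (TRINITY_DN149120_c2_g1, 6.53 and 7.1 FPKM in brain) and ART2 (TRINITY_DN138227_c8_g2, 47.7 and 26.3 FPKM) have ribosomal RNA as closest nucleotide match; the ribosomal RNA share of the libraries is given above. Both calls ended without brain library 1, brain library 2, liver library 1 or muscle library 1 and by limma at both pseudocounts. The count of lowest genes was 82 without brain library 1, 99 without brain library 2, 174 without liver library 2 and 193 without muscle library 1, and 73 with recovered totals.

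Genes among the 5 named ones furthest below a single tissue were taken in each comparison. Against liver they were hemopexin hpx (TRINITY_DN133002_c1_g3), a plasma haem carrier at 10.5 and 0.94 FPKM in brain and 9602 and 6628 in liver, 2 features named VMO1, an egg vitelline membrane protein, and 2 of complement c3. The leading VMO1 feature (TRINITY_DN124168_c0_g1) held 28.4 and 5.56 FPKM in brain and 21126 and 14990.1 in liver, a difference of -10.95 ± 1.37 (edgeR adjusted p = 0.00013). Against gonad the ribonucleotide reductase subunit rrm2 (TRINITY_DN144772_c2_g2), of DNA synthesis, held 5.31 and 6.13 FPKM in brain and 1337 and 1377 in gonad. MAP1LC3C, MYLK and Thap4 were also among the 5 largest decreases against gonad, with log2 differences of -7.66, -7.52 and -7.09. Against muscle the deficits were 4 gapdh features and the muscle aldolase Aldoa (TRINITY_DN123222_c0_g5), at 24.5 and 15.1 FPKM in brain and 86456 and 114885 in muscle. Among increases, the elongation factor feature eef1a (TRINITY_DN147700_c7_g3) exceeded gonad by 10.77 ± 1.11 but stood below muscle, at 952 and 1128 FPKM in brain, 1.25 and 0.45 in gonad and 3983 and 2134 in muscle.

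The 2 brain libraries correlated at 0.949 across genes. Over 2-fold apart in FPKM were 106 of the 757 markers, against 2529 of all 16270 genes. Higher in library 2 were 474 of the markers, against 10922 of all genes. Neither share was higher among the markers. Among named genes rasl11b (TRINITY_DN138571_c6_g1), a small GTPase, marked brain at 7.63 and 194 FPKM, a call that ended without brain library 2 or gonad library 2 and by limma at both pseudocounts. SWAP70 (TRINITY_DN148034_c1_g2) ran the other way, at 193 and 7.22, as did the immunoproteasome subunit Psmb8 (TRINITY_DN145648_c0_g3), at 392 and 27.1, and the phagocyte oxidase CYBB (TRINITY_DN148883_c4_g2), at 77.04 and 4.98; none of these 3 marked brain. Psmb8 and CYBB were higher in library 1 of liver and muscle too, at 359 and 52.9 and 131 and 9.33 FPKM for Psmb8.

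The levels of the male libraries did not enter the female differences, but these libraries shared the estimate of the spread. In them 237 of the 757 female markers (31.3%) marked male brain by the same rule, against 4.12% of all genes. These 237 were 35.3% of the 671 male markers. All 3 male differences were positive for 570 (75.3%), against 24.2% of all genes. In 392 (51.8%) both male brain libraries exceeded all 6 other male libraries, against 13.2% of all genes. The median male difference of the female markers was 1.88 over liver, 1.29 over gonad and 1.56 over muscle. Of the 20 leading named markers, 13 marked male brain: gja1 stood at 172 and 125.1 FPKM in male brain, PKP4 at 90.5 and 93.6 FPKM, and gapdh TRINITY_DN125623_c2_g2 at 1562 and 1383 FPKM, close to their female levels, while MBP stood at 134 and 156 FPKM and dytn at 2657 and 1013 FPKM. Clusterin was not a male marker by the rule, at 1623 and 682 FPKM in male brain and 124 and 806 in male muscle, and neither was TUBA1A, at 192 and 134 FPKM. At 2 or more on the log2 scale over each tissue 290 genes (1.78%) marked male brain. Lowest in male brain were 232 genes (1.43%), which included 39 of the 319 lowest in female brain. The list of G protein signalling gave 22 male markers of 101 against 4 female ones, where 4.12 and 4.65% of all genes were markers. That contrast between the sexes was not tested for the list. In the gene-wise test of the sex difference described below, 7 of the 101 were positive and 20 negative. Of all genes 6.15 and 5.53% were.

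**Figure D5:**
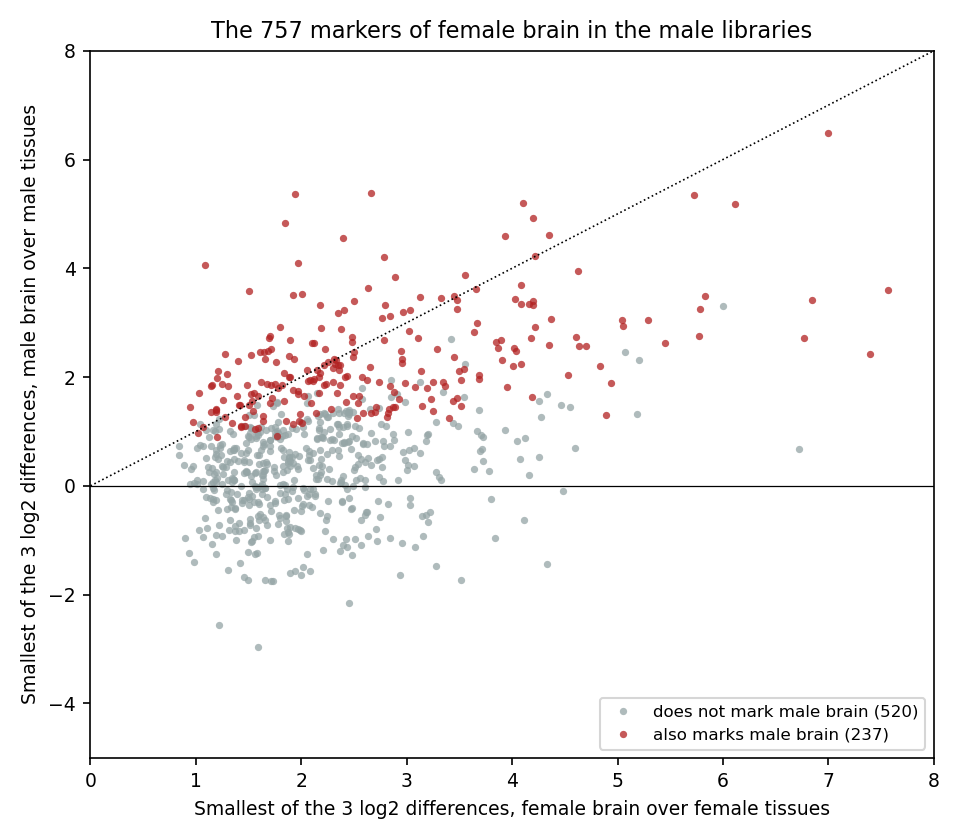
For each of the 757 genes that marked female brain, the smallest of its 3 log2 differences in females (horizontal axis) and in males (vertical axis); the dotted line is equality, and red points also marked male brain. The 237 red points reach up to 6.48 in males.

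The test of the difference itself compared female brain over the mean of its 3 tissues with the same in males. It was positive for 1000 genes (6.15%) and negative for 900 (5.53%) at an adjusted p below 0.05 in edgeR, and among the 757 markers for 219 and 5. Since the markers were chosen on the female side of this contrast, that count is a description. These counts rested on single libraries: they were 11 and 2 without brain library 1, 210 and 82 without brain library 2, and 2415 and 1764 without liver library 1. They were also 576 and 532 without muscle library 1 and 629 and 513 without muscle library 2. The balance of the directions turned under 4 alternatives, with 786 positive and 1251 negative calls without the 13 mitochondrial features, 907 positive and 1028 negative with DESeq2 size factors, 377 positive and 686 negative without gonad library 1 and 910 positive and 1295 negative without gonad library 2. MBP was higher in females by this test, by 4.48 ± 0.60 on the log2 scale (edgeR adjusted p = 0.0057), as was Eif4g1, by 4.60 ± 0.51 (edgeR adjusted p = 0.002), and neither call ended under an alternative run. For gja1 the difference was 0.70 ± 0.62 (edgeR adjusted p = 0.44), and for Kif1b 0.35 ± 0.54 (edgeR adjusted p = 0.68), which does not show that the sexes are alike. The mitochondrial share differed between female and male brain as given above.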

How the data were processed

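RNA from 16 tissue samples was extracted with Trizol, its integrity checked (Agilent) and libraries read on an Illumina HiSeq, per the labels' protocols. The authors deposited, per the file headers, an expected count and an FPKM for each assembled gene and library; per the submitters' processing notes RSEM was used. For the assembler, aligner and strand setting, none is named in these sources. A further 16 value columns belong to no listed sample and were not used.

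Expected counts were rounded to whole numbers and tested in edgeR 4.0.16 (R 4.3.3) by the two-sided quasi-likelihood F test with TMM scaling (factors 0.623 to 1.845), a mean for each of 8 groups over 16 libraries, 8 residual degrees of freedom, a biological coefficient of variation of 0.341 and Benjamini-Hochberg adjustment over 16270 genes. SE was obtained as the size of the log2 difference divided by the root of F. Calling code was tested on simulated data. No gene was filtered: the lowest FPKM was 0.31, and 724 genes had under 3 counts in at least 1 library, so genes silent in a tissue are outside the comparisons. The table lists 51.4 to 80.4% of the fragments recovered from count and FPKM.

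Named genes were the 20 named markers with the largest smallest difference and no overlap, the 5 largest changes each way per comparison, list members (up to 6 markers and 3 lowest per list), the 15 highest levels, the 5 largest sex interactions each way, the 6 largest ratios each way between the brain libraries and the 10 lowest. Markers, the 23 gene lists and this rule were chosen with earlier results of these data known. Some of these genes are left out and are not reported here. Alternatives were other scalings, a count filter, DESeq2 1.42.0, limma 3.58.1 on log2(FPKM + 1) and log2(FPKM + 0.1), the female libraries alone, a replicate block, each female library left out, and, added after the data were seen, the mitochondrial features left out.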

Additional observations from a re-analysis of the deposited data

Results flagged for a closer look

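Each of the following genes differed between the sexes in how far brain stood from the mean of liver, gonad and muscle, in the test of that difference itself; they are among the 5 largest named ones each way, and the values are log2 differences, female minus male, with the edgeR adjusted p. Levels in liver, gonad and muscle enter that test and are not printed below. A difference can therefore arise in those tissues with similar levels in the brains of both sexes. MBP, at 1371 and 1852 FPKM in female brain and 134 and 156 in male brain, gave 4.48 ± 0.60 (edgeR adjusted p = 0.0057), and Eif4g1, at 143 and 338 FPKM in female brain and 45.5 and 33.3 in male brain, gave 4.60 ± 0.51 (edgeR adjusted p = 0.002). The heat shock gene hsp70 (TRINITY_DN136987_c1_g5), at 73.4 and 66.7 FPKM in female brain and 28.2 and 22.3 in male brain, gave 4.90 ± 1.10 (edgeR adjusted p = 0.023) and lost the call without brain library 1 or brain library 2 and by limma on log2(FPKM + 0.1). The protease htra1b (TRINITY_DN134672_c1_g1), at 13.7 and 11.97 FPKM in female brain and 4.94 and 16.3 in male brain, gave 4.44 ± 1.29 (edgeR adjusted p = 0.043) and lost it without brain library 1, brain library 2, gonad library 1, gonad library 2, liver library 2, muscle library 1 or muscle library 2 and by limma at both pseudocounts. RGS1 (TRINITY_DN147012_c0_g2), at 289.9 and 149 FPKM in female brain and 75.8 and 52.7 in male brain, gave 4.35 ± 1.15 (edgeR adjusted p = 0.035) and lost it without brain library 1, brain library 2 or muscle library 1 and by limma on log2(FPKM + 0.1); it also lay just outside the marker rule, with a largest edgeR adjusted p of 0.0502.

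In the other direction PRORSD1 (TRINITY_DN125789_c5_g2) gave -6.67 ± 1.77 (edgeR adjusted p = 0.035), at 8.19 and 3.8 FPKM in female brain and 2.66 and 1077 in male brain, so that 1 male library sets its level; the call was lost without brain library 1, brain library 2, muscle library 1 or muscle library 2 and by limma at both pseudocounts. ETV5 (TRINITY_DN134255_c2_g1), an ETS transcription factor, gave -6.27 ± 0.92 (edgeR adjusted p = 0.0086), at 3.52 and 4.22 FPKM in female brain and 126 and 51.4 in male brain, and lost the call without brain library 1. The ribosomal RNA-like features Nlrc3 and ART2 gave -9.13 ± 2.15 (edgeR adjusted p = 0.026) and -5.63 ± 1.54 (edgeR adjusted p = 0.038), at 6.53 and 7.1 FPKM in female brain and 1091 and 1205 in male brain and at 47.7 and 26.3 FPKM in female brain and 1198 and 1121 in male brain. Their calls were lost without brain library 1 or brain library 2 and by limma on log2(FPKM + 0.1), and without brain library 1, brain library 2 or muscle library 1 and by limma at both pseudocounts.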

How the results depend on the processing

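No result on a single gene, among those recomputed, changed direction, but the balance of higher and lower calls turned under some settings. Against liver 11.6% of all genes were higher and 12.2% lower, which became 26.6 and 5.34% with recovered totals. Against gonad 4560 higher and 4321 lower genes became 3342 and 5332 with recovered totals, and turned to 4422 and 4438 without the mitochondrial features. The sex interactions turned from 1000 positive and 900 negative to 786 and 1251 without those features. Among single results on named and unnamed genes over all alternatives, 2317 kept direction and side of the threshold and 138 kept direction only. The filter of 10 counts in at least 2 libraries removed no gene. With recovered totals 26.6% of all genes were higher and 5.34% lower than in liver and 37 and 5.06% than in muscle, with 1206 markers, 674 strong markers, 73 lowest genes and 403 negative sex interactions. By limma on log2(FPKM + 1) the shares were 25.8 and 4.19% against liver, 18.4% higher against gonad and 34.7 and 4.47% against muscle, with 1262 markers, 594 strong, 51 lowest and 556 negative interactions. On log2(FPKM + 0.1) they were 25.4 and 4.17%, 18.5%, and 35 and 4.54%, with 683 strong, 62 lowest and 266 positive and 163 negative interactions. DESeq2 called 483 lowest genes and 1953 positive and 1820 negative interactions. The cause of these shifts was not tested. Leaving out 1 female library gave 6.1 to 15.1% higher and 4.95 to 14.8% lower against liver, 19.4 to 29.7% and 19 to 28.1% against gonad, 8.49 to 20.6% and 6.88 to 17.3% against muscle, 415 to 1026 markers, 262 to 528 strong markers, 82 to 451 lowest genes, 11 to 2415 positive and 2 to 1764 negative interactions and 168 to 287 markers of both sexes; the lone library left is then taken to vary like the other groups. Deviations of same-numbered libraries correlated at -0.314 to 0.228 over the 6 female tissue pairs, 3 of them above 0.1, and at 0.186 to 0.589 over the 6 male pairs. Not every pair passed 0.1, so the numbers were not taken to pair the samples. With the replicate block there were 1734 positive interactions, 1331 negative ones and 916 markers. Depth limits genes under 3 counts, 628 in at least 1 female library.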

Other observations

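VPS4A (TRINITY_DN133103_c0_g1), an ATPase of membrane scission, was low in library 1 and high in library 2 of all 4 female tissues, at 3.3 and 184 FPKM in brain, 1.28 and 85.6 in liver, 7.34 and 49.04 in gonad and 7.98 and 117 in muscle, and stood at 20.6 and 108 FPKM in male brain. CYP4X1, a cytochrome P450, showed the same split in brain (1.61 and 60.8 FPKM), liver (8.5 and 149) and gonad (2.14 and 21.6) but not in muscle (3.45 and 2.85). The labels do not say whether equal numbers mark 1 fish.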
